A study of Rattus norvegicus with 2 samples.

Results

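The barcodes described here are lung macrophages of the rat that carry C1q RNA, a minority of them with Cd163 RNA, taken from droplet-based single-cell RNA sequencing and chosen by the measured UMIs of 9 genes. A barcode with at least 200 detected genes was a member when at least 2 of C1qa, C1qb, C1qc, Cd163 and Ms4a7 had a unique molecular identifier (UMI, a counted RNA molecule). These 5 marker genes together had to hold at least 0.2% of its UMIs, and the 4 alveolar macrophage genes Fabp4, Plet1, Abcg1 and Slc39a2 together less than 0.2%. The rule found 246 members among 33759 barcodes, 125 of them in the explosion library and 121 in the control library.

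The explosion library came from fresh lung of rats exposed to a gas explosion, and the control library from lung of unexposed rats. Both groups were kept specific-pathogen-free, and both lungs were digested with collagenase IV, papain and DNase I, cleared of red cells and of dead cells, and loaded on a 10x Genomics 3' chip. Strain, age, time after the exposure and the number of animals in a library are not given in the sources used here. Each group was 1 library, so differences between the groups lack replicates and went untested. Values in parentheses after a share, level or ratio are exact 95% limits, which cover counting error only.

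C1q is the protein that starts the classical complement pathway by binding immune complexes and dying cells, and its A, B and C chains are the products of 3 adjacent genes. Cd163 is the receptor that takes up hemoglobin bound to haptoglobin, and in the rat it is the ED2 antigen that marks resident tissue macrophages. Interstitial macrophages lie in the lung tissue around airways, vessels and nerves, apart from the alveolar macrophages of the air spaces. In mouse lung they have been divided into a set with high Lyve1 and low MHC class II beside vessels and a set with low Lyve1 and high MHC class II beside nerves.

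The C1q genes carried most of the rule in both libraries, so the sequence before their starts is shown with that of Cd163. The windows are the 250 bases before the annotated start, from RefSeq on build GRCr8, where 4 of the 5 marker genes, all but C1qc, were matched. Capitals mark TGCTGA, a part of a MAF recognition element, and GAGGAA, a form of the site bound by the macrophage factor PU.1, on either strand. Other forms of these sites were not searched, so a window without a match may still hold such a site. C1qa (chr5:154419934-154420183, minus strand), C1qb (chr5:154407828-154408077, minus strand) and Cd163 (chr4:158770524-158770773, plus strand) read as follows.
C1qa: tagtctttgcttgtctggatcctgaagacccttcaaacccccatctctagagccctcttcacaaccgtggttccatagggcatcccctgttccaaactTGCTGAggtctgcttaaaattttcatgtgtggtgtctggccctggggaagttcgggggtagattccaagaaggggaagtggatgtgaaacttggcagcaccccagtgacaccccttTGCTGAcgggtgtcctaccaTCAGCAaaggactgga
C1qb: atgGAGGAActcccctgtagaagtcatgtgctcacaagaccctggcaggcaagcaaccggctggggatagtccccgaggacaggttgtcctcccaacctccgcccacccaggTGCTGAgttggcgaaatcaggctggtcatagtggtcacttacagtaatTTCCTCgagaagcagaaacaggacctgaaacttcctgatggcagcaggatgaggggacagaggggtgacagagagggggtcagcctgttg
Cd163: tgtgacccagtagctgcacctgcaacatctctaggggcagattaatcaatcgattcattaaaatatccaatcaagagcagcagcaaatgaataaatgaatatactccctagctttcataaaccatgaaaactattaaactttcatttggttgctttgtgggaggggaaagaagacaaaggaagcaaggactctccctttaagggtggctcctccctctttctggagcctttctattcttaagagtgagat
The C1qa window held 3 matches to TGCTGA and 0 to GAGGAA, and the C1qb window held 1 match to TGCTGA and 2 to GAGGAA. The Cd163 window held neither. Among all 33469 windows of this length in the table, 15.1% held TGCTGA and 23.3% held GAGGAA. No match overlapped another, and a match describes the letters only.

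The libraries differed in depth and RNA content. The explosion library held 9017416 UMIs, 538.5 per barcode at the median, with a minimum of 231, and the control library 139486248 UMIs, 4917 at the median, with a minimum of 500. Explosion members carried 505 UMIs at the median (range 243 to 2175) and control members 2474 (range 503 to 18643), and 62 explosion members but 0 control members lay under 500 UMIs. Summed over members this gave 71009 explosion and 385860 control UMIs, so that 1 UMI was worth 14.1 CPM (counts scaled to the same fixed total of UMIs in each library) in explosion members and 2.59 CPM in control members. In members, ribosomal protein genes took 5.00% of explosion and 15.0% of control UMIs, Scgb1a1, the club cell secretory protein, took 1.60% of explosion and 5.97% of control UMIs, and the mitochondrial ribosomal RNAs took 2.77% of explosion and 1.12% of control UMIs. The part of these differences in the results below was not tested. The libraries shared 85 barcode sequences. These included 2 explosion members and 0 control members.

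Members made up 1.00% (0.836 to 1.20) of 12450 explosion barcodes with at least 200 genes, against 0.574% (0.476 to 0.685) of 21096 control barcodes. The difference was 0.430 percentage points (0.229 to 0.645). When every barcode was first thinned to 500 UMIs, 49 of 6745 explosion barcodes (0.726%) and 84 of 21117 control barcodes (0.398%) passed. When 3 of the 5 marker genes were asked for in place of 2, the shares were 0.627% (0.496 to 0.781) in the explosion library and 0.526% (0.433 to 0.633) in the control library, and the difference shrank to 0.100 percentage points. In explosion members, 47 held 2 of the marker genes, 59 held 3, 19 held 4 and 0 held all 5, against 10, 79, 27 and 5 control members.

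**Figure D1:**
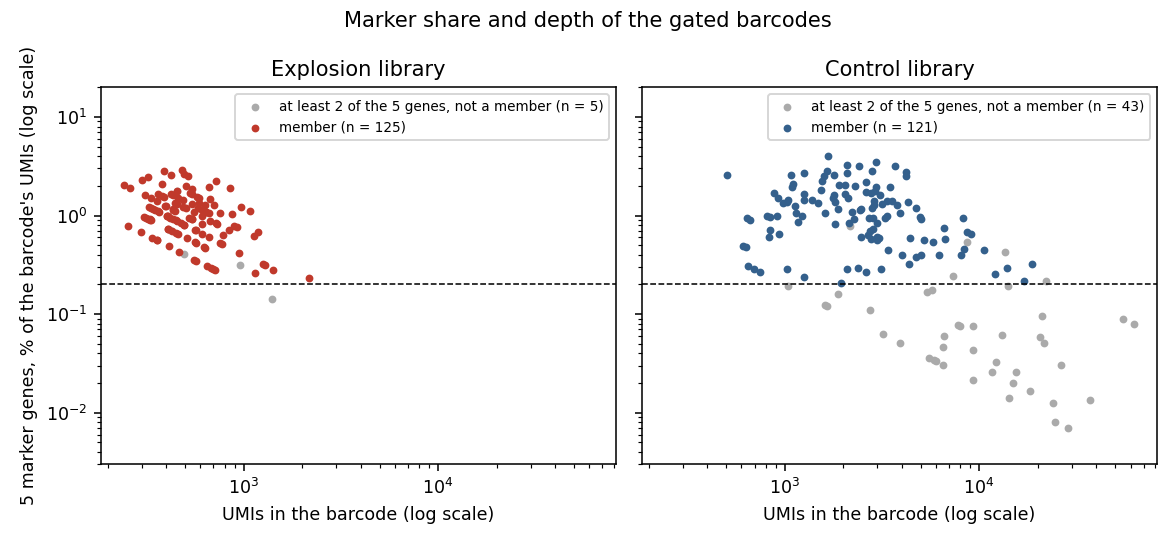
Each point is a barcode with UMIs of at least 2 of the 5 marker genes, explosion library on the left and control library on the right. The x axis is its UMI total and the y axis the percent of UMIs from the 5 genes, both on log scales, and the dashed line is the 0.2% limit. Explosion members lie between 243 and 2175 UMIs and control members between 503 and 18643, and the grey points are the 5 explosion and 43 control barcodes that missed the rule.

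Near the limit, 6 explosion and 12 control members had 0.2% to 0.3% of their UMIs from the marker genes. Just outside, 0 explosion and 23 control barcodes had at least 2 marker genes and missed on their share alone, 7 of the control ones with 0.1% to 0.2%. A further 4 explosion and 5 control barcodes were kept out by the alveolar macrophage genes alone, and 97 explosion and 3 control barcodes passed both shares with a single marker gene. The control barcodes with a low share had a median of 14138 UMIs, and the explosion barcodes with a single marker gene had a median of 356.

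The marker values that chose the members are given as a description. C1qa had 3676 CPM (261 UMIs) in explosion members and 3880 CPM (1497 UMIs) in control members. C1qb had 2239 CPM (159 UMIs) in explosion members and 3107 CPM (1199 UMIs) in control members. C1qc had 3225 CPM (229 UMIs) in explosion members and 2708 CPM (1045 UMIs) in control members. All 3 chains were seen together in 64 explosion members and 109 control members, and every member held at least 1 of them. Cd163 had 789 CPM (596 to 1024; 56 UMIs in 32 members) in the explosion library and 166 CPM (128 to 212; 64 UMIs in 25 members) in the control library. Ms4a7, a tetraspanning protein of tissue macrophages, had 3 UMIs in explosion members and 21 in control members. The rule therefore rested on C1q in both libraries, with Cd163 in 25.6% of explosion and 20.7% of control members.

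In the other barcodes the marker genes lay near the floor. C1qa had 9.55 CPM in the other explosion barcodes and 2.90 CPM in the other control barcodes, and at least 2 marker genes were found together in 0.0406% of the explosion ones and 0.205% of the control ones. Of barcodes gated as T, B or ciliated cells, 0 of the explosion library held 2 marker genes, against 1 T, 5 B and 12 ciliated barcodes of the control library. Of these, 4 B and 1 ciliated barcodes were members.

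The label was checked on genes outside the rule, and those that stood highest were macrophage genes. Among genes with at least 20 UMIs in members of each library, those with the highest CPM over the other barcodes in both libraries included F13a1, Stab1, Pf4, Clec10a, Lyve1, Pltp, Apoe, Tmem176b, Adgre1, Ms4a4a and Tmem176a. F13a1, the A chain of clotting factor XIII that resident macrophages make, was 564 times as high in members as in the other barcodes of the explosion library and 1538 times in the control library. Lyve1, a hyaluronan receptor of perivascular macrophages, was 34.2 times as high in explosion members and 128 times in control members. Adgre1, which encodes the F4/80 antigen, was 12 times as high in explosion members and 23.9 times in control members. Of 13415 genes measured this way in the explosion library, 13% were at least 2-fold higher and 38.0% at least 2-fold lower in members, against 18.3% and 30.3% of 16862 genes in the control library. These ratios describe what the gate collected and are not a test.

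**Figure D2:**
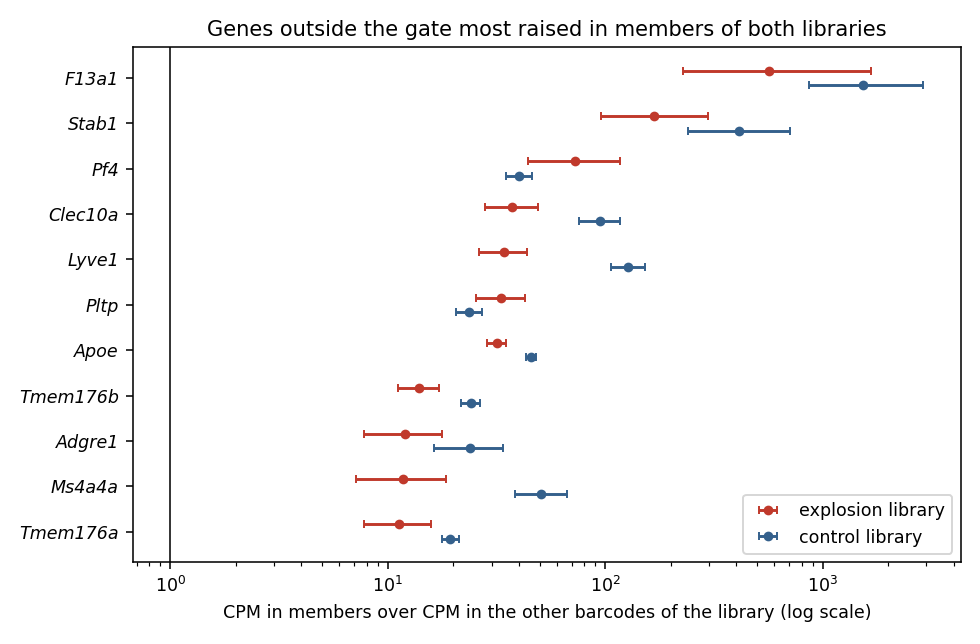
The x axis is CPM in members over CPM in the other barcodes of the same library on a log scale, for genes outside the rule that stood highest in both libraries. Points are explosion and control values and bars are 95% counting intervals, and every point lies above 11 in both libraries, F13a1 highest.

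Defining markers of several other cell types were at 0, and others were present. The mast cell and basophil markers had 0 UMIs in members of either library, which allows up to 42.2 CPM in explosion members and 7.77 CPM in control members per gene. The alveolar genes Marco and Fabp1, the dendritic cell genes Xcr1, Clec9a, Ccr7 and Zbtb46, the endothelial genes Cdh5 and Cldn5 and the platelet genes Ppbp, Itga2b, Gp9 and Gp1bb were also at 0 in members of both libraries. Pf4 was thus the only platelet marker seen. Alveolar macrophage markers, 4 of which the rule limits, were seen in 12 explosion and 57 control members, and endothelial markers in 10 and 12. In each library 4 of 6 endothelial markers were seen. They summed to 141 CPM in explosion and 33.7 CPM in control members, against 185 and 29.9 CPM in the other barcodes. Erythroid markers were seen in 11 explosion and 53 control members. They had 169 CPM in explosion and 264 CPM in control members, against 273 and 239 CPM in the other barcodes. Classical monocyte markers had 549 CPM in explosion members and 174 CPM in control members, against 705 and 77.7 CPM in the other barcodes of the same libraries. Type 2 alveolar markers had 366 CPM in explosion members and 855 CPM in control members, against 2196 and 2398 CPM in those other barcodes. Summed secretory cell markers, mostly Scgb1a1, had 16153 CPM in explosion members and 67506 CPM in control members, below the 60693 CPM of the other explosion and the 261358 CPM of the other control barcodes, and 10 explosion and 120 control members held at least 2 of them. Dendritic cell markers had 944 CPM in explosion members and 288 CPM in control members, above the 75.4 CPM of the other explosion and the 9.25 CPM of the other control barcodes, and Clec10a, which the perivascular list below also holds, gave 929 CPM of it in explosion and 285 CPM in control members. Nonclassical monocyte markers had 1084 CPM in explosion members and 381 CPM in control members, against 1115 CPM in the other explosion and 75.6 CPM in the other control barcodes. Cycling markers had 113 CPM in explosion members and 303 CPM in control members, against 193 CPM in the other explosion and 58.2 CPM in the other control barcodes. The part of these classes in the results was not tested. Summed T cell markers had 70.4 CPM in explosion members and 15.6 CPM in control members, with 4 of 6 and 5 of 6 markers seen. Summed B cell markers had 42.2 CPM in explosion members and 111 CPM in control members, with 3 of 6 and 4 of 6 seen. Fibroblast markers had 901 CPM in explosion members and 210 CPM in control members, below the 3383 and 402 CPM of the other barcodes of the same libraries, and Lum and Pdgfra were at 0. Neutrophil markers had 56.3 CPM in explosion members and 428 CPM in control members, where a single member reached 160772 CPM. Scrublet called 4 explosion and 5 control members as doublets, and 7 explosion and 21 control members held at least 2 markers of a lymphocyte, granulocyte, stromal, endothelial, ciliated or alveolar epithelial class; they were kept.

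Explosion members stood higher in most of the genes of perivascular resident macrophages. Of 15 such genes found in the files, 13 had at least 10 UMIs over both libraries. Of these, 8 were at least 2-fold higher and 1 at least 2-fold lower in explosion members, with a median log2 ratio of 1.35. Over all 6423 genes with at least 10 UMIs, the minimum asked of list genes, 28.9% were at least 2-fold higher, 20.5% at least 2-fold lower and the median was 0.43. Over the 2643 genes with at least 30 UMIs, 23.0% were at least 2-fold higher (607 genes), 21.5% at least 2-fold lower (567 genes) and the median was 0.23. The lists below are read against the first of these. With Scgb1a1, mitochondrial ribosomal RNA, Rn45s and ribosomal protein genes left out of the library sums, the split of the 2643 genes turned to 454 higher and 687 lower, the median of all genes to 0.01 and that of the perivascular list to 1.14. The same list had a median of 2.64 in the other barcodes and 0.77 in barcodes gated as alveolar macrophages, so a high ratio was also measured outside members.

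Stab1, a scavenger receptor for modified lipoproteins and matrix fragments, had 451 CPM in explosion members and 82.9 CPM in control members, a ratio of 5.43 (3.22 to 9.16). Selenop, the secreted selenium carrier, had 4450 CPM in explosion members and 1239 CPM in control members, a ratio of 3.59 (3.11 to 4.15). Clec10a, a galactose-binding lectin, had 929 CPM in explosion members and 285 CPM in control members, a ratio of 3.26 (2.37 to 4.46). These intervals exclude a ratio of 2, but when barcodes were thinned to 500 UMIs before the gate the log2 ratios were smaller, at 1.34 for Stab1, 1.39 for Selenop and 1.02 for Clec10a. Mrc1, the mannose receptor, had 1394 CPM in explosion members and 487 CPM in control members, a ratio of 2.86 (2.22 to 3.67). Lyve1 had 1141 CPM in explosion members and 430 CPM in control members, a ratio of 2.65 (2.01 to 3.48). Igf1, a growth factor, had a ratio of 2.54 (1.90 to 3.38), and F13a1 of 2.29 (1.41 to 3.65). Not every gene of the list stood higher. Folr2, the folate receptor of resident macrophages, had 253 CPM in explosion members and 223 CPM in control members, a ratio of 1.14 (0.644 to 1.91). Pf4, a platelet-type chemokine that macrophages also make, had 408 CPM in explosion members and 606 CPM in control members, a ratio of 0.673 (0.441 to 0.993). Timd4, a receptor for phosphatidylserine on dying cells, had 0 UMIs in explosion members and 19 in control members, and the interval of its ratio, 0 to 1.16, includes 1.

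Because control members were deeper, the share of members holding a UMI was compared after each was thinned to 300 UMIs, which kept 121 members of each library and left out 4 shallower explosion members. At that depth 66 explosion members (54.5%, 45.2 to 63.6) held a UMI of Lyve1, Folr2, Mrc1, F13a1 or Stab1, against 26 control members (21.5%, 14.5 to 29.9), a difference of 33.1 percentage points (20.5 to 44.5). This set of 5 genes was put together after their values were seen, so the difference is a description only. Other genes of the perivascular list went both ways at that depth. Selenop was seen in 50.4% of explosion and 20.7% of control members, and Clec10a in 24.0% and 5.79%. Pf4 was seen in 8.26% of explosion and 15.7% of control members, Fcna in 4.96% and 6.61%, and Ccl24 in 5.79% of each. Without thinning, the shares were 66.4% of explosion and 53.7% of control members, at median depths of 505 and 2474 UMIs. In barcodes gated as T or B cells, which should lack these genes, the thinned shares were 4.76% in the explosion library and 5.58% in the control library, with Mrc1 in 9 of the 12 explosion and all 125 of the control barcodes. When barcodes were thinned to 500 UMIs before the gate was applied, 35 of 49 explosion members (71.4%) and 26 of 84 control members (31.0%) held such a UMI.

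Single genes of the set differed among themselves at 300 UMIs. Lyve1 was seen in 24.8% of explosion and 10.7% of control members, Stab1 in 16.5% of explosion and 0.826% of control members, and Mrc1 in 28.9% of explosion and 9.09% of control members. Folr2 was seen in 6.61% of explosion and 7.44% of control members, a difference within counting error. Cd163 was seen in 17.4% of explosion and 4.96% of control members, but it helped choose the members and is given as a description only. Apoe, the lipid carrier that was not in this set, was seen in 49.6% (40.4 to 58.8) of explosion and 19.0% (12.4 to 27.1) of control members, against 1.98% and 0.759% of lymphocytes. Cd74 and RT1-Da, of MHC class II, were seen in near-equal shares, 57.0% and 43.8% of explosion members against 57.9% and 45.5% of control members. Other class II genes were not level. RT1-Db1 was seen in 33.1% of explosion and 48.8% of control members, RT1-Bb in 4.13% and 23.1%, and RT1-DMa in 14.0% and 26.4%. RT1-Ba was seen in 36.4% of explosion and 32.2% of control members, and RT1-DMb in 14.0% and 10.7%.

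**Figure D3:**
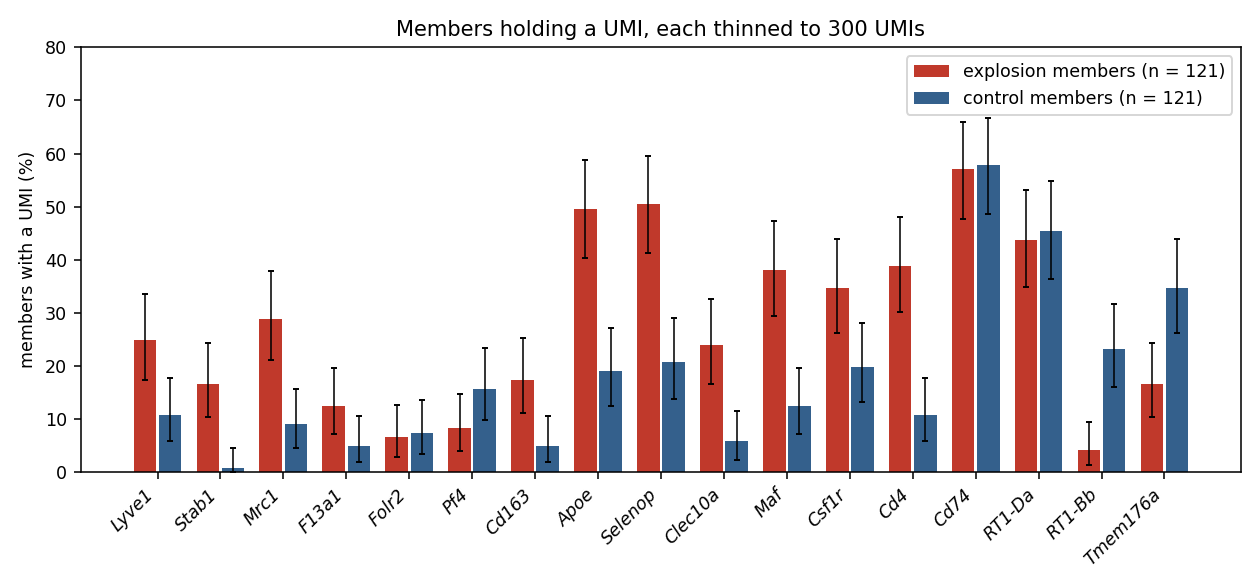
Bars give the percent of members with a UMI of each gene after every member was thinned to 300 UMIs, explosion left and control right for each gene (121 members each), with 95% binomial intervals. Explosion bars stand higher for Lyve1, Stab1, Mrc1, Apoe, Selenop, Maf and Cd4, control bars for RT1-Bb and Tmem176a, and Cd74 and RT1-Da are level.

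Members with and without a UMI of those 5 genes at 300 UMIs were then compared for genes that did not define the split. Apoe was 4.04 times as high in explosion members with such a UMI as in those without, and 3.82 times in control members. Within members that had such a UMI, Apoe had 10239 CPM in the explosion library and 8648 CPM in the control library, a ratio of 1.18 (1.04 to 1.34). Within members that had none, it had 2535 CPM in the explosion library and 2263 CPM in the control library, a ratio of 1.12 (0.881 to 1.41). Over all members the Apoe ratio was 1.85 (1.67 to 2.05), from 6929 CPM in explosion members and 3742 CPM in control members, so the difference was smaller within each subset than over members as a whole. Selenop, with 3.59 over all members, had a ratio of 1.93 (1.62 to 2.29) among members with such a UMI and 3.46 (2.58 to 4.6) among those without. Cd4, the coreceptor that rat macrophages also carry, had a ratio of 3.91 (2.52 to 6.14) among members with such a UMI and 4.41 (2.91 to 6.58) among those without. Some other perivascular list genes stood lower among members with such a UMI. The ratios were 0.397 (0.238 to 0.634) for Pf4, 0.271 (0.105 to 0.593) for Fcna and 0.400 (0.204 to 0.725) for Ccl24. Among those without, the ratios were 0.592 (0.233 to 1.26) for Pf4, 1.92 (0.717 to 4.42) for Fcna and 1.75 (0.598 to 4.26) for Ccl24. One control member held 30 Ccl24 UMIs. Clec10a had 2.19 (1.47 to 3.26) among members with such a UMI and 2.01 (0.980 to 3.81) among those without.

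MHC class II genes were less often seen beside the perivascular genes at equal depth. At 300 UMIs, 51.5% of explosion members with a UMI of the 5 perivascular genes also held a UMI of RT1-Ba, RT1-Bb, RT1-Da, RT1-Db1 or Cd74, against 81.8% of explosion members without. In the control library 13 of 26 members with such a UMI held one, against 82.1% of members without, the same order in both libraries. When all UMIs were used, the share of members holding a class II UMI kept that order in both libraries. It was 62.7% with and 85.7% without in explosion members, and 80% with and 92.9% without in control members. By another measure, the share of UMIs from these MHC class II genes, explosion members kept the order, at 1.27% with and 1.98% without. Control members did not, at 1.5% with and 1.02% without. A split by Cd163 is a description only, because Cd163 helped choose the members. It also overlaps the first split, as 28 of 32 explosion members with a Cd163 UMI held a perivascular UMI. Explosion members with a Cd163 UMI gave 0.347% of their UMIs to these MHC class II genes, against 1.87% in explosion members without. Control members with a Cd163 UMI gave 0.787%, against 1.48% in control members without. At 300 UMIs the order by Cd163 held in explosion members, at 0.317% with and 1.93% without, and was the other way in control members, at 2.67% in only 6 members with and 1.59% without. The subsets describe these barcodes and were not tested.

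Across members as a whole, MHC class II presentation genes did not follow the perivascular genes. Of 10 measured, 1 was at least 2-fold higher and 2 at least 2-fold lower in explosion members, with a median log2 ratio of -0.32, against 2.02 in the other barcodes and 0.44 in alveolar macrophage barcodes. With barcodes of at least 500 UMIs only, the median in members was -0.75. Cd74, the invariant chain that guides class II molecules, had 7661 CPM in explosion members and 5025 CPM in control members, a ratio of 1.52 (1.38 to 1.68). RT1-Da had a ratio of 1.18 (1.02 to 1.36), and RT1-Db1 of 0.659 (0.553 to 0.781). RT1-Bb, the beta chain of the RT1-B molecule, had 183 CPM in explosion members and 1013 CPM in control members, a ratio of 0.181 (0.0953 to 0.313), while RT1-Ba, its alpha chain, had 1831 CPM in explosion members and 1267 CPM in control members, a ratio of 1.45 (1.18 to 1.76). The same pair had ratios of 0.195 for RT1-Bb and 3.41 for RT1-Ba in alveolar macrophage barcodes, so a gap between the chains was measured there too. Ciita, the switch factor of class II genes, had 4 explosion and 7 control UMIs, and Cd86, a costimulatory ligand, had 1 explosion and 21 control UMIs.

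**Figure D4:**
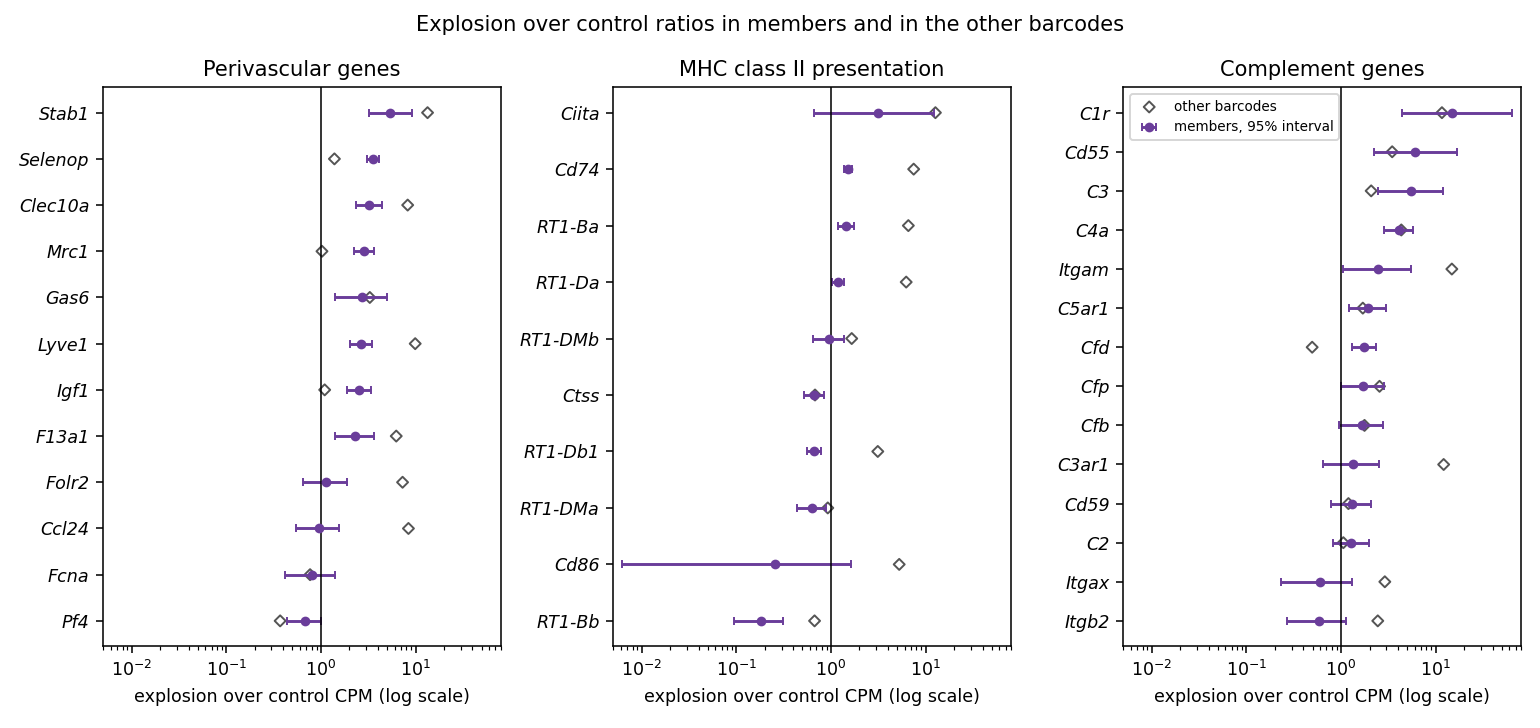
The x axis is the explosion over control CPM ratio on a log scale for perivascular, MHC class II and complement genes with at least 10 UMIs, the genes at 0 in explosion members and the rule's genes left out. Filled points are members with 95% counting intervals and open diamonds are the other barcodes; Stab1, Selenop and Clec10a lie to the right of 1 and RT1-Bb to the left, and Cd74, RT1-Ba and RT1-Da lie farther right in the other barcodes than in members.

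Of 15 complement genes measured beyond C1q, 5 were at least 2-fold higher and 0 at least 2-fold lower in explosion members, the higher share being near the 28.9% of all genes. The median log2 ratio was 0.83, against 1.29 in the other barcodes and 0.90 in alveolar macrophage barcodes. C4a, which is cleaved next after C1q binds, had 831 CPM in explosion members and 205 CPM in control members, a ratio of 4.06 (2.85 to 5.76). C3, the central component, had 15 UMIs in each library, 211 CPM in explosion members and 38.9 CPM in control members, a ratio of 5.43 (2.48 to 11.9). Explosion members over the other explosion barcodes gave 0.452 for C4a and 1.02 for C3, so neither set members apart there. C1r, the protease that C1q carries, had 11 explosion and 4 control UMIs, and Cd55, a membrane inhibitor, had 10 explosion and 9 control UMIs. Cfd, the protease factor D, had a ratio of 1.76 (1.30 to 2.37) in members against 0.495 in the other barcodes. Of the receptors, C5ar1 had a ratio of 1.92 (1.21 to 2.97), and Itgb2, a chain of complement receptor integrins, of 0.584 (0.271 to 1.12).

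Among macrophage transcription factors, 8 of 17 measured were at least 2-fold higher and 1 at least 2-fold lower in explosion members. Of all genes, 28.9% were higher and 20.5% lower by that measure. The median of the list was 0.73, against 0.93 in the other barcodes and 0.52 in alveolar macrophage barcodes. Maf, a transcription factor of resident macrophages, had 1704 CPM in explosion members and 410 CPM in control members, a ratio of 4.16 (3.26 to 5.31). Nr4a1 had a ratio of 5.94 (3.57 to 9.92) and Irf8 of 4.55 (2.73 to 7.54), both with larger ratios of 14.3 and 7.66 in the other barcodes. Runx1 had a ratio of 4.35 (2.55 to 7.36), against 1.75 in the other barcodes. Spi1, which encodes PU.1, had a ratio of 0.914 (0.531 to 1.49), and Atf3, a stress factor, of 0.520 (0.363 to 0.727). Tfec had 5 UMIs in each library, and Bhlhe40 had 1 explosion and 14 control UMIs.

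Of 16 general macrophage genes measured, 5 were at least 2-fold higher and 3 at least 2-fold lower in explosion members, with a median of -0.01. Both shares were near the 28.9% and 20.5% of all genes. Csf1r, the receptor for macrophage growth factor, had 1394 CPM in explosion members and 617 CPM in control members, a ratio of 2.26 (1.77 to 2.87). Adgre1 had a ratio of 4.45 (2.57 to 7.62) and Mpeg1, a pore-forming protein, of 3.64 (2.69 to 4.90). Tyrobp, a signalling adaptor, had 1127 CPM in explosion members and 3799 CPM in control members, a ratio of 0.296 (0.234 to 0.371). Lyz2, lysozyme, had 4605 CPM in explosion members and 13108 CPM in control members, a ratio of 0.351 (0.313 to 0.393). Ratios for Tyrobp and Lyz2 were 0.421 and 0.434 in the other barcodes. Of genes of monocyte-derived and nerve-associated macrophages, 4 of 12 measured were at least 2-fold higher and 1 at least 2-fold lower in explosion members, with few UMIs a gene. The higher share was near the 28.9% of all genes. The median was 0.71, against 1.56 in the other barcodes and 1.33 in alveolar macrophage barcodes. Cx3cr1, the fractalkine receptor, had 6 explosion and 25 control UMIs, and Ccr2, the receptor of monocytes entering tissue, had 7 of each. Siglec1, a sialic acid receptor of resident macrophages, had 183 CPM in explosion members and 36.3 CPM in control members, a ratio of 5.05 (2.18 to 11.6). Itgax, the integrin chain CD11c, had 7 explosion and 63 control UMIs, a ratio of 0.604 (0.233 to 1.32), and Cadm1 had 0 explosion and 15 control UMIs. Of the growth factor receptor chains, Csf2ra had a ratio of 0.733 (0.365 to 1.34) and Csf2rb of 0.937 (0.283 to 2.45).

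Of 17 scavenger and uptake receptors measured beyond Cd163, 5 were at least 2-fold higher and 3 at least 2-fold lower in explosion members, with a median of 0.49. Both shares were near the 28.9% and 20.5% of all genes. Lrp1, which takes up hemopexin-bound heme among other ligands, had a ratio of 3.13 (1.93 to 5.01), while Clec7a, the beta-glucan receptor, had 0.507 (0.319 to 0.772). Colec12, a collectin-like scavenger receptor, had a ratio of 4.18 (1.64 to 10.3), and Olr1, a receptor for oxidized lipoprotein, had 2 explosion and 25 control UMIs. Of 13 heme and iron genes, 3 were at least 2-fold higher and 5 at least 2-fold lower in explosion members, with a median of 0.12. Hmox1, the enzyme that breaks down heme, had 15 UMIs in each library, 211 CPM in explosion members and 38.9 CPM in control members, a ratio of 5.43 (2.48 to 11.9). Fth1, the ferritin heavy chain, had 2746 CPM in explosion members and 8322 CPM in control members, a ratio of 0.330 (0.284 to 0.381), and Ftl1, the light chain, a ratio of 0.232 (0.141 to 0.363). Cp, the copper oxidase ceruloplasmin, had a ratio of 3.62 (1.46 to 8.62). Blvra, which reduces biliverdin, had 0 explosion and 32 control UMIs, at least 1.96-fold lower with a floor of 3 counts in the explosion sum. Fth1 and Ftl1 had ratios of 0.271 and 0.145 in the other barcodes.

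In the lysosome and lipid list, 3 of 23 measured genes were at least 2-fold higher and 5 at least 2-fold lower in explosion members, with a median of -0.24. Psap, the precursor of lipid-degrading saposins, had 3352 CPM in explosion members and 1630 CPM in control members, a ratio of 2.06 (1.76 to 2.39). Abca1, a cholesterol exporter, had a ratio of 2.66 (1.56 to 4.42). Npc2, a lysosomal cholesterol carrier, had 0.456 (0.336 to 0.607), and Fabp5, a fatty acid carrier, had 2 UMIs in explosion members and 89 in control members, a ratio of 0.122 (0.0146 to 0.454). Trem2, a lipid receptor, had 225 CPM in explosion members and 238 CPM in control members, a ratio of 0.945 (0.519 to 1.62), against a ratio of 0.113 in the other barcodes. Plin2, a coat protein of lipid droplets, had a ratio of 0.428 (0.2 to 0.813), and its direction turned when barcodes were thinned before the gate (log2 ratio 0.23). Repair and matrix genes had 3 of 13 at least 2-fold higher and 3 at least 2-fold lower, near the 28.9% and 20.5% of all genes. The median was -0.17, against 1.13 in the other barcodes and 0.82 in alveolar macrophage barcodes. Tgfbi, a secreted matrix protein, had 366 CPM in explosion members and 62.2 CPM in control members, a ratio of 5.89 (3.25 to 10.7). Fn1, fibronectin, had a ratio of 0.604 (0.422 to 0.842) in members against 6.77 in the other barcodes. Spp1, osteopontin, had 2 explosion and 31 control UMIs, a ratio of 0.351 (0.0407 to 1.38). Mmp12, macrophage elastase, had 84.5 CPM in explosion members and 238 CPM in control members, a ratio of 0.354 (0.127 to 0.801).

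Of 20 chemokine genes measured, 12 stood at least 2-fold over the other explosion barcodes and 15 over the other control barcodes. These genes needed at least 10 UMIs over members of both libraries, which favours genes that are high in members. The share of all genes with that minimum was not counted for this comparison. The counts therefore do not show whether chemokine genes set members apart more than other genes. Between the groups, 5 of the 20 chemokine genes were at least 2-fold higher and 2 at least 2-fold lower in explosion members. The higher share was near the 28.9% of all genes. The median was 0.51, against 1.56 in the other barcodes and 0.31 in alveolar macrophage barcodes. Cxcl1, a neutrophil attractant, had 1929 CPM in explosion members and 562 CPM in control members, a ratio of 3.43 (2.75 to 4.27). Cxcl2, a related attractant, had 1845 CPM in explosion members and 1887 CPM in control members, a ratio of 0.978 (0.806 to 1.18). Ccl3 had 239 CPM in explosion members and 606 CPM in control members, a ratio of 0.395 (0.226 to 0.646), and Ccl4 had 2 explosion and 72 control UMIs, a ratio of 0.151 (0.0179 to 0.565); both attract monocytes and T cells. Ccl12, a monocyte attractant, had 6 explosion and 4 control UMIs. Ccl24, an eosinophil attractant, had a ratio of 0.947 (0.549 to 1.55) and stood 30.9-fold over the other explosion barcodes and 275-fold over the other control barcodes.

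Of 14 inflammatory cytokine and feedback genes, 5 were at least 2-fold higher and 2 at least 2-fold lower in explosion members. Of all genes, 28.9% were higher and 20.5% lower by that measure. The median of the list was 0.66, against 1.13 in the other barcodes and 0.45 in alveolar macrophage barcodes. Tnfaip3, the A20 protein that limits NF-kB signalling, had 845 CPM in explosion members and 95.9 CPM in control members, a ratio of 8.81 (5.75 to 13.7). Its ratio was also 7.97 in the other barcodes. Nfkbiz, another NF-kB feedback gene, had a ratio of 3.49 (2.47 to 4.88), and Il1b, interleukin 1 beta, of 1.45 (1.03 to 2.00). Il10, an anti-inflammatory cytokine, had 7 UMIs in explosion members and 6 in control members, a ratio of 6.34 (1.82 to 22.8). Nos2 and Acod1, enzymes of activated macrophages, had 5 UMIs each in explosion members and 0 in control members. Il18 had a ratio of 0.384 (0.201 to 0.673) and Tgfb1 of 0.331 (0.105 to 0.805). Tnf had 3 explosion and 17 control UMIs, a ratio of 0.959 (0.180 to 3.31). Interferon response genes had 5 of 17 at least 2-fold higher and 2 at least 2-fold lower, the higher share being near the 28.9% of all genes. The median of the interferon list was 0.73, against 2.2 in the other barcodes. In members this median was -0.01 when barcodes were thinned to 500 UMIs before the gate. Ifi27, an interferon-induced gene, had a ratio of 0.499 (0.329 to 0.730). Mx2 had 5 explosion and 8 control UMIs, and Oasl had 0 explosion and 10 control UMIs.

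Immediate early and heat shock genes, which tissue dissociation can also induce, stood level as a list, with 2 of 18 at least 2-fold higher, 2 at least 2-fold lower and a median of 0.01. Fos had 3718 CPM in explosion members and 4012 CPM in control members, a ratio of 0.927 (0.810 to 1.06), and Jun a ratio of 1.03 (0.869 to 1.22). Zfp36, which destabilizes cytokine mRNA, had 1887 CPM in explosion members and 435 CPM in control members, a ratio of 4.33 (3.43 to 5.47). Its ratio was also 5.60 in the other barcodes. Egr1 had a ratio of 2.88 (1.13 to 6.82), Hspb1 of 0.349 (0.137 to 0.744) and Hspa1b of 0.479 (0.0942 to 1.52). In each library a single barcode held much of Hspb1, with 57.1% of its 7 explosion UMIs and 45.9% of its 109 control UMIs. After members were thinned to equal depth, Hspb1 was seen in 2.48% of explosion and 3.31% of control members. Respiratory chain subunits stood lowest, with 0 of 28 at least 2-fold higher, 23 at least 2-fold lower and a median of -1.31, against -1.42 in the other barcodes and -1.58 in alveolar macrophage barcodes. Atp5f1e, of ATP synthase, had 197 CPM in explosion members and 941 CPM in control members, a ratio of 0.210 (0.113 to 0.356). Atp5mc1 had a ratio of 0.215 (0.0917 to 0.432), while Atp5mc2 had 1.03 (0.710 to 1.47) and Sdha 1.96 (0.804 to 4.33).

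**Figure D5:**
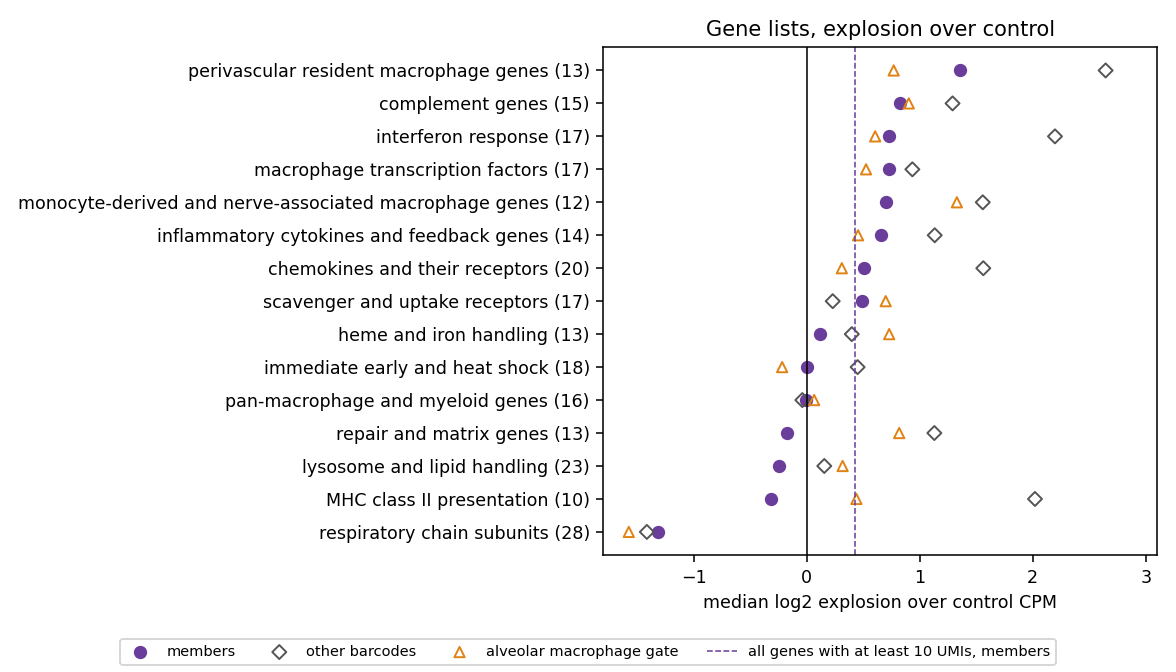
The x axis is the median log2 explosion over control CPM of each gene list, with the number of genes measured in members in brackets, for members, other barcodes and alveolar macrophage barcodes. The dashed line is the median of all genes with at least 10 UMIs in members (0.43); the perivascular list stands highest in members at 1.35 and the respiratory chain lowest at -1.31, and the MHC class II list lies at -0.32 in members and 2.02 in the other barcodes.

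Outside the lists, the genes with the highest explosion over control ratios were led by Ttc39a, with 30 UMIs in explosion members and 2 in control members, a ratio of 81.5 (20.7 to 704). Its ratio was also 22.4 in the other barcodes. Slc28a2, a nucleoside transporter, had 1084 CPM in explosion members and 148 CPM in control members, a ratio of 7.34 (5.14 to 10.5), against 37.4 in the other barcodes. Cd4 had 1380 CPM in explosion members and 293 CPM in control members, a ratio of 4.71 (3.56 to 6.23), and was seen in 38.8% of explosion and 10.7% of control members at 300 UMIs. The Cd4 ratio was larger in the other barcodes, at 13.5, and was 4.72 in alveolar macrophage barcodes. Cmtm6, a regulator of PD-L1 at the cell surface, had a ratio of 6.49 (3.92 to 10.8) in members against 2.62 in the other barcodes. Nfat5, the factor of osmotic stress, had 6.57 (4.30 to 10.1), Arrdc3 5.02 (3.49 to 7.22) and Fosl2 5.59 (3.41 to 9.17). In the other barcodes these ratios were 12.2 for Nfat5, 6.97 for Arrdc3 and 5.02 for Fosl2. Nedd9, a scaffold protein, had a ratio of 25.5 (14.7 to 46.8), but 38.7% of its 75 explosion UMIs lay in 1 barcode.

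At the other end, Fau, which fuses a ubiquitin-like protein to a ribosomal protein, had a ratio of 0.25 (0.191 to 0.321). Tmsb10, a thymosin that binds actin, had 0.210 (0.153 to 0.281), and Cyba, a subunit of the phagocyte oxidase, had 0.206 (0.136 to 0.300), from 394 CPM in explosion members and 1918 CPM in control members. Cyba also had a ratio of 0.292 in the other barcodes. Ifitm1, an interferon-induced membrane protein, had 141 CPM in explosion members and 868 CPM in control members, a ratio of 0.162 (0.0771 to 0.302), against 0.707 in the other barcodes. Map1lc3a, of autophagy, had 0.123 (0.0331 to 0.320). Dstnl1 had 0 UMIs in explosion members and 61 in control members, at least 3.74-fold lower with the floor of 3 counts. Slpi, a secreted protease inhibitor, had 169 CPM in explosion members and 1329 CPM in control members, a ratio of 0.127 (0.0653 to 0.224), but its UMIs lay in 3 explosion and 13 control members, with 75% of the explosion and 34.1% of the control ones in a single barcode. Its log2 ratio was -0.69 when barcodes were thinned to 500 UMIs before the gate, against -2.92 without thinning, both with 0.5 counts added. Tmem176a, a membrane protein of macrophages and dendritic cells, had a ratio of 0.380 (0.263 to 0.533), while Tmem176b had 1.31 (1.04 to 1.64) and a log2 ratio of -0.19 after that thinning.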

How the data were processed

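Dissociated lung cells of 1 explosion and 1 control library were analysed. For each library the authors deposited a raw count matrix in which every whole number is the UMI count of 1 of 42172 genes in 1 barcode; the file headers give cellranger 7.1.0 as the writer. Without saying what each was used for, the submitters' processing notes list Cell Ranger 6.1.1, bcl2fastq 2.20, rn6 and mRatBN7.2, and the sources used here do not give the annotation.

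The members, the markers and the gene lists were chosen with earlier results of these data known. Members were gated as the opening states and their UMIs summed per library. CPM is a gene's sum over all UMIs of the members. Ratios are explosion over control with exact conditional Poisson intervals, and shares have Clopper-Pearson intervals at the 95% level. A gene was tested with at least 30 UMIs over both sums, and a list gene measured with at least 10; list medians had 0.5 counts added, and giving genes without UMIs their bound left every median as printed. Of 282 list genes 278 were found, and of 112 class markers 111. Other barcodes are those with at least 200 genes that are not members. Alveolar macrophage barcodes are those with at least 2 of the 4 alveolar genes, at least 0.2% of UMIs from them and less than 0.2% from the 5 marker genes; T, B and ciliated gates asked for at least 2 markers of the type, with no limit on shares.

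Named genes are the 9 genes of the rule, the 12 genes highest over the other barcodes in both libraries, the 10 highest and 10 lowest ratios by the interval bound nearest 1 (at least 50 CPM and 30 UMIs, and at least the CPM of the other barcodes, in the library where higher), the 2 highest and 2 lowest of each list, and list genes whose role the text gives. Some genes this rule names are not reported here or drawn; the counts and medians of lists include them. Doublets were called with Scrublet in scanpy 1.11.5 and kept. Interval coverage was tested on simulated independent Poisson counts only. These lack the clustering of UMIs in single barcodes, so coverage was not tested for such genes. Computations used Python 3.11.15, numpy 2.4.6 and scipy 1.17.1.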

Additional observations from a re-analysis of the deposited data

Results flagged for a closer look

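Slpi and Mmp12 had opposite directions in members and in alveolar macrophage barcodes. The log2 explosion over control ratio of Slpi was -2.98 in members and 0.89 in alveolar macrophage barcodes, where it had 10.3 CPM in the explosion library and 5.54 CPM in the control library. The log2 ratio of Mmp12 was -1.50 in members and 2.13 in alveolar macrophage barcodes, where it had 9 CPM in the explosion library and 2.05 CPM in the control library. The difference between the cell groups was not tested for either gene. In members, Mmp12 rested on 6 UMIs in explosion and 92 in control members, and Slpi on 12 UMIs in explosion and 513 in control members. When barcodes were thinned to 500 UMIs before the gate, the log2 ratio in members was -0.69 for Slpi and -0.44 for Mmp12, with 0.5 counts added.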

How the results depend on the processing

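No paired analysis was possible because each group has 1 library. The difference in the share of members was 0.10 percentage points when 3 of the 5 marker genes were asked for. The genes at least 2-fold higher and lower in explosion members numbered 39 and 113 of 297 when barcodes were thinned to 500 UMIs before the gate, and 1857 and 1314 of 6423 with a minimum of 10 UMIs in place of 30. There were 357 higher genes with at least 0.5% of UMIs from the marker genes, and 398 without members holding 2 markers of another class. The MHC class II median was -0.75 with at least 500 UMIs per barcode, and the log2 ratio of Plin2 was 0.23 after thinning before the gate. The cause of these shifts was not tested, apart from the number of genes tested, which the filter and the thinning set. The other 176 values that answer a comparison stayed within the limits set for them. Of 756 values for 84 named genes, 60 moved and 1 that was at least 2-fold turned its direction; the log2 ratio of Slpi was -0.69 after thinning before the gate. Weighing each barcode the same, and the depths and gates tried for the 5 perivascular genes, were chosen after seeing the data; the share with such a UMI was 43.8% to 71.4% in explosion and 18.2% to 31.4% in control members across them. Depth limits members most in the explosion library, where 1 UMI is 14.1 CPM. The monocyte-derived list had no value after thinning before the gate.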
